A study of Mus musculus with 8 samples.

Results

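Kruppel-like factors (KLFs) are zinc-finger transcription factors that bind GC-rich and CACCC-type DNA, and 10 of their genes, *Klf2*, *Klf3*, *Klf4*, *Klf5*, *Klf6*, *Klf9*, *Klf10*, *Klf11*, *Klf13* and *Klf15*, are described here in fetal mouse hearts with and without *Dio3*. The members were selected by gene symbol with earlier results from these hearts known, and *Klf9* was singled out for its difference between genotypes. Each gene is represented by its transcript row with the highest average of the 2 genotype means. All 10 members were found, in 17 of the 51414 transcript rows of the table, which holds 26590 gene symbols. The values that chose the row are levels over both genotypes and not the difference between them.

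*Dio3* encodes the type 3 deiodinase, which inactivates thyroid hormone, and the comparison asks how a fetal heart transcribes these factors when that clearance is missing from the whole animal. Hearts of 4 *Dio3*+/+ and 4 *Dio3*-/- fetuses on a C57BL/6J background were profiled by total RNA sequencing, each heart from an individual fetus. The inactivation is constitutive, so the other fetal tissues lack the enzyme as well, and the allele was made in another mouse strain and then backcrossed into C57BL/6J. The sample titles place all 8 hearts at E13.5 (embryonic day), and the age field of 2 *Dio3*-/- hearts (3 and 4) gives E18.5. The paper's methods give a further age for these hearts, and E13.5 is used here.

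The files give 1 mean and 1 coefficient of variation (CV, the SD divided by the mean) per genotype and transcript, so the value of each single heart, its read total and hence its depth are unknown here. The values are read as RPKM, read coverage scaled to transcript length and to the number of mapped reads. A limit on single hearts can still be derived, because none of 4 values lies farther than 1.5 SD from their mean. Where the ranges that this allows for the 2 genotypes do not meet, the hearts of the genotypes cannot have overlapped, whatever their single values. Differences were tested with limma on the log2(RPKM + 0.5) scale over all 32703 transcript rows above 1 RPKM in at least 1 genotype. Log2 fold changes are *Dio3*-/- over *Dio3*+/+ on that scale, where the pseudocount pulls the folds of weakly transcribed genes toward 0. The median log2 fold change over the 14657 genes tested was 0.04.

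Several features of the whole table bear on how the values can be read. *Dio3* itself was low in both genotypes, with a mean of 0.35 RPKM (CV 1.23) in *Dio3*+/+ against 0.13 RPKM (CV 0.76) in *Dio3*-/- hearts, too low for a check of the genotype labels. All 8 cardiomyocyte markers were high, with means from 24.2 RPKM in *Dio3*+/+ against 36.6 RPKM in *Dio3*-/- hearts upward. The design text calls the fetuses male, and *Xist*, which is made from an inactive X chromosome, averaged 35.64 RPKM (CV 0.99) in *Dio3*+/+ hearts against 39.97 RPKM (CV 0.55) in *Dio3*-/- hearts. The Y-linked *Eif2s3y* varied as widely, with CVs of 1.04 and 1.46. These values go against male fetuses only in either genotype, and the sex of each heart is unknown here. Hepatocyte markers had higher means in *Dio3*-/- hearts, with the 10 summing to 24.1 RPKM in *Dio3*+/+ against 127.1 RPKM in *Dio3*-/- hearts and CVs from 0.68 to 1.26 in the latter. Markers of body-wall mesenchyme, bone and skeletal muscle (11, listed after the table was seen) had higher means in *Dio3*+/+ hearts, summing to 94.0 against 35.2 RPKM and CVs from 0.51 to 1.62 among *Dio3*+/+ hearts. The 8 red cell markers found (of 10 listed) summed to 37290 RPKM in *Dio3*+/+ against 12754.7 RPKM in *Dio3*-/- hearts. Most of both sums came from the globin genes *Hbb-y* (29100.96 and 9908.94 RPKM) and *Hba-x* (7388.93 and 2529.68 RPKM). In whole hearts, fewer cells of a type, less RNA per cell and a difference in fetal age cannot be told apart.

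The factors fall into groups by the corepressors they are known to bind. *Klf9*, *Klf10*, *Klf11* and *Klf13*, with *Klf14* and *Klf16*, recruit the SIN3A corepressor. *Klf3*, with *Klf8* and *Klf12*, recruits CtBP, whereas *Klf2*, *Klf4*, *Klf5* and *Klf6* act largely as activators. *Klf15* stands apart as a metabolic regulator of striated muscle and liver that restrains hypertrophy of the adult heart. *Klf9* is a classic target of the thyroid hormone receptors and also responds to glucocorticoids and the circadian clock.

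In *Dio3*+/+ hearts the members ranged in level from 1.53 RPKM (*Klf15*) to 31.02 RPKM (*Klf3*). From the highest mean down, the order was *Klf3*, *Klf6*, *Klf2*, *Klf10*, *Klf11*, *Klf13*, *Klf4*, *Klf5*, *Klf9* and *Klf15*. The means ± SD of *Klf10* and *Klf11*, and those of *Klf9* and *Klf15*, overlapped, and those of the other 7 of the 9 neighboring pairs did not. Among these 7, the ranges of single hearts could still meet for *Klf3* and *Klf6*, *Klf11* and *Klf13*, *Klf4* and *Klf5*, and *Klf5* and *Klf9*. The order was not tested. In *Dio3*-/- hearts *Klf13* passed *Klf11*, and *Klf9* moved from the ninth to the seventh place, above *Klf4* and *Klf5*. Of the 9 neighboring pairs there, *Klf10* and *Klf13* alone had overlapping means ± SD. The ranges of single hearts could also meet for *Klf6* and *Klf2*, *Klf11* and *Klf9*, and *Klf5* and *Klf15*. The summed level of the 10 members was close between the genotypes, at 125.4 RPKM in *Dio3*+/+ against 128.2 RPKM in *Dio3*-/- hearts.

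**Figure D1:**
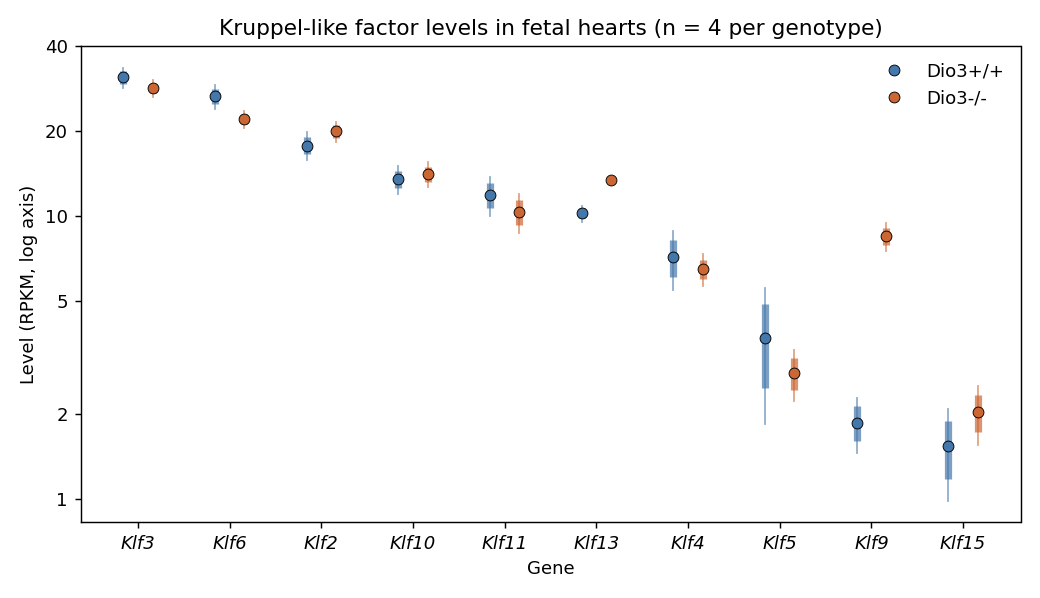
Level (RPKM, log axis) of each member in *Dio3*+/+ (blue) and *Dio3*-/- (orange) hearts, n = 4 per genotype. Points are the authors' means, thick bars the mean ± SD, and thin lines the widest range that single hearts can occupy given that mean and SD. The thin lines of the genotypes do not meet for *Klf9*, *Klf13* and *Klf6*.

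*Klf9* was the member with the largest difference, as its selection implies, and no test is given for it. Its level was 1.86 ± 0.26 RPKM (SD, n = 4) in *Dio3*+/+ and 8.48 ± 0.594 RPKM (n = 4) in *Dio3*-/- hearts, a ratio of the means of 4.56. The single hearts lay between 1.45 and 2.27 RPKM in *Dio3*+/+ and between 7.52 and 9.44 RPKM in *Dio3*-/- fetuses, so every *Dio3*-/- heart was above every *Dio3*+/+ heart. The 4 *Dio3*-/- hearts include the 2 whose age field gives E18.5, and the part of fetal age in the *Klf9* difference was not tested. The log2 fold change was 1.93 (SE 0.09), and 11 of the 14657 genes tested had a higher one. *Klf9* has a single row in the table, and Mir1192 overlaps the gene on the same strand.

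*Klf9* made up 1.48% of the summed RPKM of the 10 members in *Dio3*+/+ and 6.62% in *Dio3*-/- hearts. Among *Klf9*, *Klf13*, *Klf14* and *Klf16*, which are close relatives, its share was 9.42% in *Dio3*+/+ and 29.4% in *Dio3*-/- hearts, while the sum of these 4 genes went from 19.7 to 28.9 RPKM. *Klf13* stood at 5.51 times the level of *Klf9* in *Dio3*+/+ and at 1.59 times in *Dio3*-/- hearts. These shares are ratios of the authors' means, so they carry no SD between hearts.

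Among all genes tested, the 5 with the log2 fold change nearest to that of *Klf9* (over 2 genotype means, a description) were art3, *Itih2*, *Apoc2*, *Art3* and *Ambp*, within 0.11 of it. *Art3* is an ADP-ribosyltransferase gene that the paper counts, with *Klf9*, among those regulated by thyroid hormone. Both of its spellings had small spreads in *Dio3*-/- hearts, with a CV of 0.08 for art3 and 0.06 for *Art3*. The other 3 encode plasma proteins made by hepatocytes and had CVs from 1.06 to 1.10 in *Dio3*-/- hearts. These 3 were above 1 RPKM in *Dio3*-/- hearts alone, so the filter fixed the direction of their estimates. The CV of *Klf9* in *Dio3*-/- hearts was 0.07. The part of liver tissue in the *Klf9* difference was not tested.

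Among the other 9 members, 1 rose (*Klf13*), 1 fell (*Klf6*) and 7 did not pass an adjusted *P* value of 0.05 by limma. Over all 14657 genes, 2.29% passed, 1.91% as higher and 0.382% as lower in *Dio3*-/- hearts. Of all genes called, 83.3% were thus higher, and 71.7% were with the log2 ratios centred on their median. The median log2 fold change of the 9 was -0.13, with 4 estimates above 0 and 5 below, and 5 of the 9 had an unadjusted *P* value under 0.05, as did 19.7% of all genes tested. That share is the background for each count of unadjusted *P* values given for the gene lists, as 2.29% is for each count of calls. The genotypes could not overlap in 2 of the 9, *Klf13* and *Klf6*, against 3.85% of all genes tested. With so few members, chosen with results known, these counts describe the family and support nothing further.

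*Klf13*, a SIN3A-binding factor that also acts with GATA4 in the developing heart, had the lowest CV of the members in both genotypes. Its level was 10.25 ± 0.41 RPKM in *Dio3*+/+ against 13.46 ± 0.135 RPKM in *Dio3*-/- hearts (SD, n = 4 each). The *Dio3*+/+ hearts could lie no higher than 10.9 RPKM and the *Dio3*-/- hearts no lower than 13.2 RPKM. *Klf13* rose by 31.3%, a log2 fold change of 0.38 (SE 0.05, 95% interval 0.27 to 0.48, limma adjusted *P* = 0.00514). Its CV of 0.01 in *Dio3*-/- hearts was at or above that of only 1.89% of genes tested. The call was lost with an unmoderated test that lets the genotypes differ in variance (adjusted *P* = 0.0797), recomputed here from the rounded means and CVs. The second *Klf13* row gave the same log2 fold change (0.38, limma adjusted *P* = 0.0051), but the rows of 1 gene share reads and are not replicates. In the GENCODE annotation E030018B13Rik and Gm27252 overlap *Klf13* on the opposite strand. Whether the counting kept strands apart is not given in the sources used here.

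*Klf6*, a widely expressed activator that responds early to injury and growth signals, fell. Its level was 26.61 ± 1.6 RPKM in *Dio3*+/+ against 22.14 ± 0.886 RPKM in *Dio3*-/- hearts (SD, n = 4 each). The *Dio3*+/+ hearts could lie no lower than 24.0 RPKM and the *Dio3*-/- hearts no higher than 23.6 RPKM, so the genotypes were separated by a small margin. The log2 fold change was -0.26 (SE 0.05, 95% interval -0.38 to -0.14, limma adjusted *P* = 0.0465). The call was lost in 4 alternatives, with an adjusted *P* value of 0.0631 without a filter on low values, 0.0684 without the mean-variance trend, 0.0711 with each CV raised by its rounding error and 0.147 with the unmoderated unequal-variance test. *Klf6* has a single row.

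The DNA just before the start sites of these 3 genes, *Klf9*, *Klf13* and *Klf6*, is shown because they are the members whose hearts did not overlap between genotypes. The sequences are the 250 bases before the annotated start in RefSeq (GRCm38.p6), written 5′ to 3′ on the strand of the gene. *Klf9* is at chr19:23140976-23141225 (plus strand), *Klf13* at chr7:63938916-63939165 (minus strand) and *Klf6* at chr13:5861239-5861488 (plus strand). The capitals mark a CACCC box (CACCC), a GC box (GGGCGG) or an E-box (CACGTG), each searched on both strands, and neighboring boxes can overlap.
Klf9: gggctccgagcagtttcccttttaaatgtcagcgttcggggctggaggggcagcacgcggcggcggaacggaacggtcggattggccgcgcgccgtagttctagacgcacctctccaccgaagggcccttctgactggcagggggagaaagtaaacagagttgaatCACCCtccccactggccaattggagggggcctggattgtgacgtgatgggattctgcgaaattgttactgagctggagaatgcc
Klf13: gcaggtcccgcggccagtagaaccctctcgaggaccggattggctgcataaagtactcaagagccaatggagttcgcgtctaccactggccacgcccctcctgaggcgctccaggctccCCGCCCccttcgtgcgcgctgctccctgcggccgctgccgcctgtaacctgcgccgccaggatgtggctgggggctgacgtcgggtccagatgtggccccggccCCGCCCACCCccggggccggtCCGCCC
Klf6: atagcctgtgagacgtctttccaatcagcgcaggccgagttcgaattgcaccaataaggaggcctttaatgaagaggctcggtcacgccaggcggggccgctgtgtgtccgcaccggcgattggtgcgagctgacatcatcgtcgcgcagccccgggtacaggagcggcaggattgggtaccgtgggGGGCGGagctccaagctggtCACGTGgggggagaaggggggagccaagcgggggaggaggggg

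The windows were GC-rich, with 59.6% G or C before *Klf9*, 71.6% before *Klf13* and 64.8% before *Klf6*. A window from 250 bases before to 50 bases after the start was held for 8 of the 10 members. The GC box was in 7 of these 8 windows (not in that of *Klf9*) and in 35.7% of all 32851 promoter windows. The CACCC box was in 5 of the 8 and in 57.5% of all windows. The E-box was in 4 of the 8 (*Klf4*, *Klf6*, *Klf11* and *Klf15*, the last with 3 matches) and in 7.15% of all windows. The half-site of nuclear receptors, AGGTCA, was in 0 of the 8 and in 16.3% of all windows. These matches describe letters in a short window, and nothing about binding was measured here.

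The other SIN3A-binding members, *Klf10* and *Klf11*, are induced by TGF-β in many cells. *Klf10* had 13.53 ± 0.947 RPKM in *Dio3*+/+ against 14.08 ± 0.845 RPKM in *Dio3*-/- hearts, and its 95% interval for the log2 fold change ran from -0.09 to 0.20 (limma adjusted *P* = 0.699). *Klf11* had 11.92 ± 1.19 and 10.38 ± 1.04 RPKM, a log2 fold change of -0.19 (95% interval -0.39 to 0.01, limma adjusted *P* = 0.279). The ranges of single hearts met for both genes. None of 10 genes for TGF-β ligands, receptors, SMADs and targets passed the test (adjusted *P* from 0.153 to 0.79 by limma, 2 with an unadjusted *P* value under 0.05), with a median log2 fold change of -0.07. The most abundant of them, *Smad4*, which encodes the shared SMAD of TGF-β and BMP signaling, had means of 39.02 and 40.11 RPKM.

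*Klf3*, the member with the highest level and a CtBP-dependent repressor, had 31.02 ± 1.55 RPKM in *Dio3*+/+ against 28.34 ± 1.13 RPKM in *Dio3*-/- hearts. Its log2 fold change was -0.13 (95% interval -0.24 to -0.01, limma adjusted *P* = 0.213). All 5 rows of *Klf3* had log2 fold changes below 0, from -0.13 to -0.08, and adjusted *P* values from 0.213 to 0.43 by limma, over means from 8.44 to 31.02 RPKM in *Dio3*+/+ hearts. The rows of *Klf3* thus differed in level more than in their genotype difference. Gm20033 overlaps *Klf3* on the opposite strand and C230096K16Rik on the same strand.

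*Klf2* and *Klf4* are induced by blood flow in endothelium and endocardium and take part in valve formation. *Klf2* had 17.8 ± 1.25 RPKM in *Dio3*+/+ against 19.99 ± 0.999 RPKM in *Dio3*-/- hearts, and a log2 fold change of 0.16 (95% interval 0.03 to 0.30, limma adjusted *P* = 0.188). *Klf4* had 7.16 ± 1.07 and 6.5 ± 0.52 RPKM, a log2 fold change of -0.13 (95% interval -0.36 to 0.10, limma adjusted *P* = 0.541). Neither passed the test, and their estimates lay on opposite sides of 0. Of 12 genes known as KLF2 or KLF4 targets in endothelium, 0 passed by limma (6 with an unadjusted *P* value under 0.05, against 19.7% of all genes). Their median log2 fold change was 0.14. *Wnt9b*, a flow-responsive valve signal, is 1 of the 6, with 0.82 ± 0.0574 and 1.24 ± 0.136 RPKM. It was above 1 RPKM in *Dio3*-/- hearts alone, so the filter fixed the direction of its estimate, and no test is given for it. The gap junction gene *Gja5*, the most abundant of the 12, had means of 61.25 and 67.2 RPKM. The 10 endothelial and endocardial markers summed to 318.2 RPKM in *Dio3*+/+ against 342.0 RPKM in *Dio3*-/- hearts with a median log2 fold change of 0.11, and *Cdh5*, the most abundant, had 71.96 and 76.52 RPKM. The part of endothelial cell number in the *Klf2* estimate was not tested.

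*Klf5*, a factor of proliferating and smooth muscle cells, had the highest CV of the members in *Dio3*+/+ hearts. It had 3.69 ± 1.22 RPKM in *Dio3*+/+ against 2.78 ± 0.361 RPKM in *Dio3*-/- hearts, and a log2 fold change of -0.35 (95% interval -0.77 to 0.07, limma adjusted *P* = 0.351). Its CV of 0.33 in *Dio3*+/+ hearts was reached by 5.59% of the genes tested, whose median CV was 0.09 in *Dio3*+/+ and 0.06 in *Dio3*-/- hearts. *Klf12*, the next protein-coding gene on chromosome 14, showed the same contrast of spreads, with 4.99 ± 2.05 RPKM (CV 0.41) in *Dio3*+/+ against 3.97 ± 0.238 RPKM (CV 0.06) in *Dio3*-/- hearts. *Klf14* did as well, with CVs of 0.31 and 0.07. The 11 body-wall mesenchyme, bone and skeletal muscle markers had a median CV of 1.25 in *Dio3*+/+ and 0.13 in *Dio3*-/- hearts. These genes were listed after the table was seen, so their spreads and their lower means in *Dio3*-/- hearts are only a description. *Twist1*, their most abundant, had 16.14 ± 8.23 and 12.09 ± 0.967 RPKM. *Ibsp* had 11.25 ± 17.3 RPKM in *Dio3*+/+ against 0.03 ± 0.0177 RPKM in *Dio3*-/- hearts. It passed the filter through the *Dio3*+/+ mean alone, and no test is given for it. The part of such tissue in the *Klf5*, *Klf12* and *Klf14* values was not tested.

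**Figure D2:**
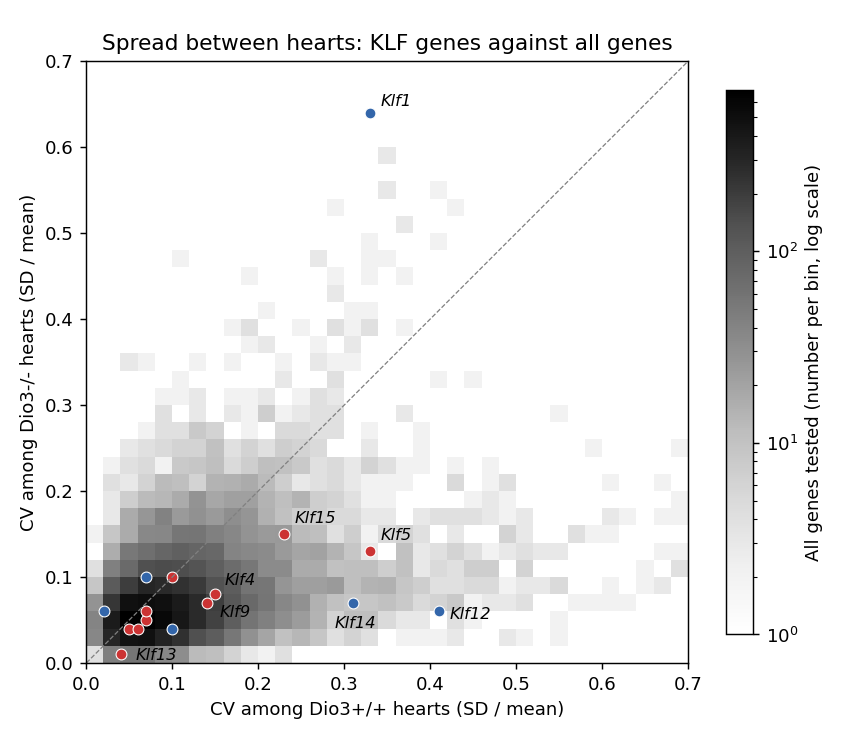
CV among *Dio3*-/- hearts against CV among *Dio3*+/+ hearts (SD divided by mean, n = 4 per genotype) for the members (red) and other KLF genes (blue), over the density of all genes tested (grey, log scale) up to a CV of 0.7. *Klf5*, *Klf12* and *Klf14* lie far to the right and low, *Klf1* (0.33 and 0.64) lies above the line of equal spread, and *Klf13* is near the lower edge.

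*Klf15* had the lowest mean of the members in both genotypes, although in *Dio3*+/+ hearts it overlapped *Klf9*. It had 1.53 ± 0.352 RPKM in *Dio3*+/+ against 2.03 ± 0.304 RPKM in *Dio3*-/- hearts, a ratio of the means of 1.33. The log2 fold change was 0.32 (95% interval 0.00 to 0.63, limma adjusted *P* = 0.26), and the ranges of single hearts met. *Klf15* is also expressed in liver, and the hepatocyte markers had higher means in *Dio3*-/- hearts as well. The part of liver tissue in the *Klf15* estimate was not tested. Of 10 tested genes among 12 listed as KLF15 targets, 1 rose, *Slc2a4*, which encodes the insulin-responsive glucose transporter, from 8.08 ± 0.404 to 11.99 ± 1.08 RPKM (log2 fold change 0.54, SE 0.07, limma adjusted *P* = 0.00658, 0.0982 unmoderated). All 10 estimates were above 0, with a median of 0.10, against 0.04 over all genes tested. Of these 10, 1 had an unadjusted *P* value under 0.05 by limma. The 10 endothelial and endocardial markers were all above 0 as well, with a median of 0.11. The most abundant of the listed KLF15 targets, *Acadm*, a gene of fatty acid oxidation, had 61.24 and 68.48 RPKM, with an adjusted *P* value of 0.39 by limma. *Kcnip2*, a channel subunit gene that KLF15 controls in the adult heart, was under 1 RPKM in both genotypes (0.34 ± 0.0986 and 0.8 ± 0.36 RPKM) and was not tested.

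Outside the 10 members, 0 of the other KLF and SP genes passed the test by limma (2 with an unadjusted *P* value under 0.05). Of the 7 other KLF genes, 6 were above 1 RPKM in a genotype, with a median log2 fold change of -0.16. *Klf8*, an X-linked CtBP-binding repressor, had the lowest adjusted *P* value, with 2.25 ± 0.045 RPKM in *Dio3*+/+ against 1.81 ± 0.109 RPKM in *Dio3*-/- hearts. Its single hearts could not overlap between genotypes, with a log2 fold change of -0.25 (limma adjusted *P* = 0.0996). The part of fetal sex in the *Klf8* values was not tested. *Klf14* had 1.21 ± 0.375 and 0.81 ± 0.0567 RPKM (log2 fold change -0.38). It was above 1 RPKM in *Dio3*+/+ hearts alone, so the filter fixed the direction of its estimate, and no test is given for it. *Klf14* is 1 of the 2 genes with an unadjusted *P* value under 0.05 and is included in the median of -0.16. *Klf7* and *Klf16* had 95% intervals within -0.23 to 0.23, and *Klf17* was at 0.01 and 0.02 RPKM. *Klf1*, the erythroid factor that activates globin genes, had 3.25 ± 1.07 RPKM in *Dio3*+/+ against 3.68 ± 2.36 RPKM in *Dio3*-/- hearts (log2 fold change 0.16, limma adjusted *P* = 0.864). All 8 red cell markers had log2 fold changes below 0, from -1.55 to -0.25 (*Gata1*), with a median of -1.27. *Hbb-bh1*, an embryonic β-globin gene, was the 1 of them that passed (-1.51, limma adjusted *P* = 0.0468), and that call was lost in 5 alternatives (adjusted *P* from 0.0531 with raised CVs to 0.197 with the unmoderated test). *Hbb-y*, the most abundant, had 29100.96 and 9908.94 RPKM (limma adjusted *P* = 0.0751).

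The SP genes encode close relatives of the KLFs that bind the same GC boxes. *Sp1*, *Sp2*, *Sp3* and *Sp4* had log2 fold changes from -0.06 to 0.04, and their 95% intervals lay between -0.19 (the lower limit of *Sp2*) and 0.16 (the upper limit of *Sp4*). *Sp3* was the most abundant, at 39.04 ± 2.73 RPKM in *Dio3*+/+ against 38.48 ± 0.77 RPKM in *Dio3*-/- hearts, above every KLF gene. *Sp7*, an osteoblast factor that is also among the bone markers above, had 1.07 ± 1.64 RPKM in *Dio3*+/+ against 0.15 ± 0.103 RPKM in *Dio3*-/- hearts, so its SD exceeded its mean among *Dio3*+/+ hearts. It was above 1 RPKM in *Dio3*+/+ hearts alone, so the filter fixed the direction of its estimate. *Sp5*, *Sp6*, *Sp8* and *Sp9* were below 1 RPKM in both genotypes and were not tested.

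**Figure D3:**
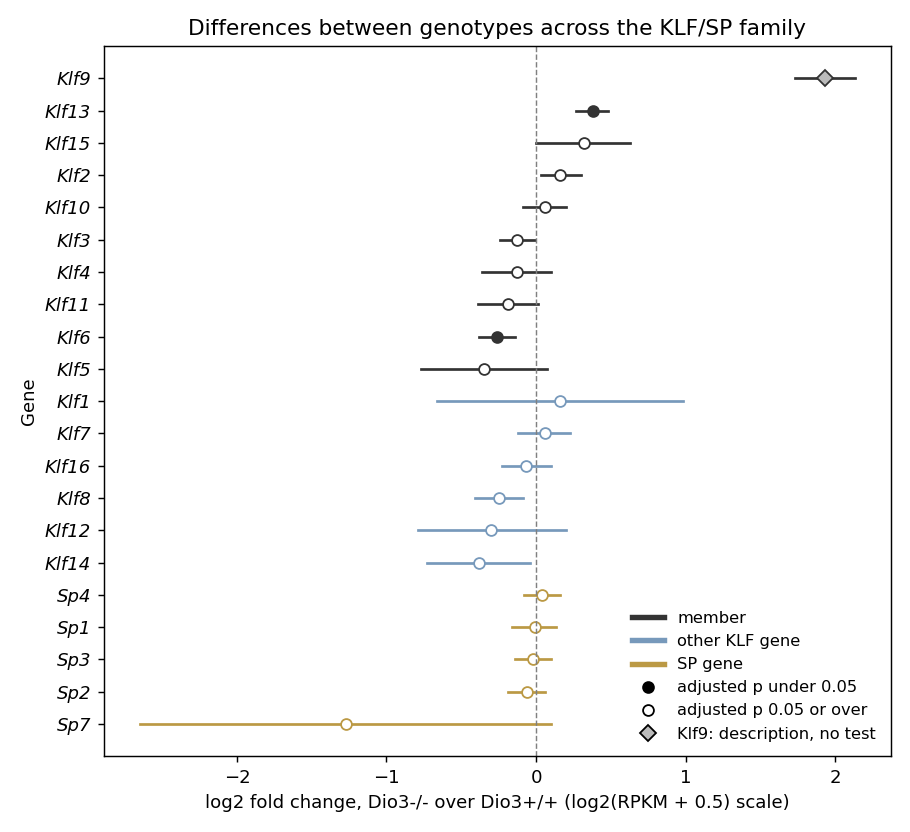
Log2 fold change (*Dio3*-/- over *Dio3*+/+, log2(RPKM + 0.5) scale) with its 95% interval for the members (black), other KLF genes (blue) and SP genes (ochre) above 1 RPKM in a genotype. Filled circles passed an adjusted *P* value of 0.05 by limma (*Klf13* and *Klf6*), open circles did not, and the diamond is *Klf9*, given as a description. *Klf14* and *Sp7* were above 1 RPKM in *Dio3*+/+ hearts alone, so the filter fixed the direction of their estimates.

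KLF proteins act through corepressors and coactivators and are degraded through ubiquitin ligases. Of 12 genes for these partners, 0 passed the test by limma (4 with an unadjusted *P* value under 0.05), with log2 fold changes from -0.10 to 0.20 and a median of 0.01. *Ctbp1*, the most abundant, had 64.19 ± 2.57 and 68.58 ± 4.12 RPKM. *Sin3a*, the corepressor of the *Klf9* group, had 25.3 ± 1.77 RPKM in *Dio3*+/+ against 25.05 ± 0.501 RPKM in *Dio3*-/- hearts. Of 6 tested genes among 7 partners and targets of KLF13 in the heart, 0 passed (adjusted *P* from 0.257 to 0.709 by limma, 1 with an unadjusted *P* value under 0.05). The most abundant, *Nppa*, which encodes atrial natriuretic peptide, had 744.63 ± 89.4 and 861.33 ± 60.3 RPKM.

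*Klf9*, *Klf10* and *Klf15* are known outputs of the circadian clock, and of 14 clock genes tested (15 listed) 3 rose and 1 fell, against 1.91% and 0.382% of all genes. *Dbp*, a clock-driven activator, rose from 4.29 ± 0.215 to 7.77 ± 0.466 RPKM (log2 fold change 0.79, limma adjusted *P* = 0.000385). The paper also counts *Dbp* among the genes regulated by thyroid hormone. *Hlf*, a relative of *Dbp*, rose with a log2 fold change of 0.33 (limma adjusted *P* = 0.0408), and *Nr1d2*, which encodes the repressor REV-ERBβ, with 0.36 (limma adjusted *P* = 0.0478). *Per1*, a repressor of the clock, fell from 9.52 ± 0.286 to 7.81 ± 0.391 RPKM (log2 fold change -0.27, limma adjusted *P* = 0.037). The core activator *Clock* had 12.99 and 14.04 RPKM. The median log2 fold change of the clock genes was 0.14. *Dbp* passed, and the other 3 calls were lost, without a filter on low values, with the unmoderated test and with each CV raised by its rounding error. *Hlf* (adjusted *P* = 0.0731) and *Nr1d2* (adjusted *P* = 0.0837) were also lost with centring on the median log2 ratio, and *Nr1d2* (adjusted *P* = 0.0573) without the mean-variance trend. The time of day at collection is not given in the sources used here.

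*Klf9* and *Klf15* also respond to glucocorticoids, and *Per1* was the 1 gene of 10 glucocorticoid-responsive genes that passed. *Fkbp5*, a sensitive glucocorticoid target, had 8.45 ± 0.929 and 9.29 ± 0.836 RPKM (log2 fold change 0.13, limma adjusted *P* = 0.478). The median of the list was 0.05, and *Mt1*, a metallothionein gene and its most abundant member, had 69.86 ± 18.2 and 83.6 ± 26.8 RPKM.

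*Klf2*, *Klf4*, *Klf6* and *Klf10* are induced within minutes by stress and handling, together with the immediate-early genes. Of 15 immediate-early genes tested (18 listed), 0 rose and 2 fell, against 0.382% of all genes that fell. *Fos* fell from 4.01 ± 0.722 to 2.21 ± 0.243 RPKM (log2 fold change -0.73, SE 0.12, limma adjusted *P* = 0.0183, 0.144 unmoderated). *Zfp36*, which encodes an mRNA-destabilizing protein, fell from 14.01 ± 1.82 to 10.26 ± 0.616 RPKM (log2 fold change -0.43, limma adjusted *P* = 0.0437). That call was lost without a filter on low values (adjusted *P* = 0.0724), without the trend (0.0574), with raised CVs (0.057) and with the unmoderated test (0.195). *Egr1* had 12.08 and 12.87 RPKM, and *Jund*, the most abundant, 58.56 and 53.47 RPKM. The median of the list was -0.07, with 5 estimates above 0 and 9 below. Of the KLF genes named here, *Klf6* and *Klf4* had lower *Dio3*-/- means (log2 fold changes -0.26 and -0.13). *Klf2* and *Klf10* had higher ones (0.16 and 0.06). Values of single hearts are unknown. The part of dissection or handling in the *Klf6* difference was not tested.

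**Figure D4:**
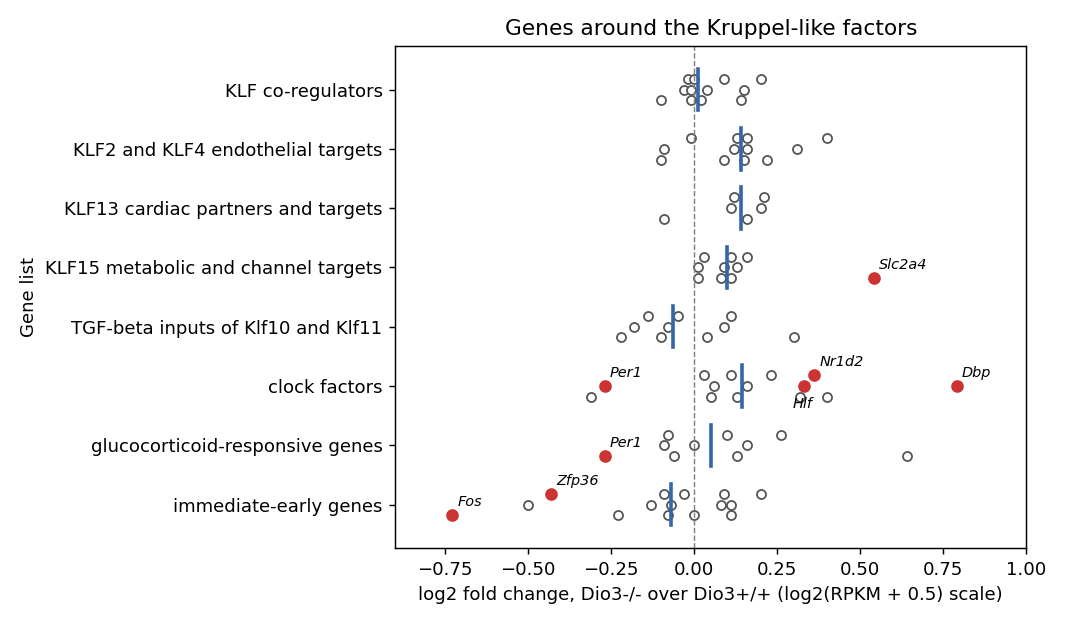
Log2 fold change (*Dio3*-/- over *Dio3*+/+, log2(RPKM + 0.5) scale) of each tested gene in 8 lists of regulators, partners and targets of the KLFs. Red points passed an adjusted *P* value of 0.05 by limma, open points did not, and blue bars are list medians, which lie between -0.07 and 0.14.

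Counted by transcript row instead of gene, 3 of the 16 rows of the 9 members other than *Klf9* passed (both rows of *Klf13* and the row of *Klf6*), against 2.15% of all rows tested. No member had rows that differed in direction. For the cardiomyocyte markers, 2 of 8 rose, *Myh6* and *Ryr2*, against 1.91% of all genes. With the unmoderated test neither passed (adjusted *P* = 0.0662 and 0.165). *Actc1*, the most abundant, had 4778.41 and 5638.08 RPKM. None of the 10 hepatocyte markers passed by limma, with a median log2 fold change of 1.58 and *Afp* as the most abundant at 5.11 and 44.57 RPKM. *Ttr*, *Fgb*, *Ahsg* and *Fgg* were above 1 RPKM in *Dio3*-/- hearts alone, so the filter fixed the direction of their estimates.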

How the data were processed

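Total RNA of 4 *Dio3*+/+ and 4 *Dio3*-/- fetal hearts was sequenced after rRNA removal. The authors aligned reads with NovoAlign (version 2.08), kept uniquely mapping reads, scaled samples linearly to the smallest library and deposited, per UCSC transcript and genotype, a mean read here as RPKM (the header names no unit) and a coefficient of variation, a ratio of SD to mean, both rounded to 2 decimals. The genome build is not given in the sources used here. The deposited fold changes and q values are the authors' own comparison and were not used. The depth per sample is unknown here.

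Log2(mean + 0.5) and its delta-method SD were calculated per genotype. In R 4.3.3, limma 3.58.1 shrank the pooled variances (6 residual and 3.52 prior degrees of freedom) toward a trend on the mean, and Benjamini-Hochberg adjustment ran over the 32703 rows where either genotype exceeded 1 RPKM. The test was checked on simulated data. The bound on single hearts (1.5 SD for 4 values, widened by the rounding error of 0.005) was added after the data were seen, as were the body-wall, bone and skeletal muscle markers. Members and lists were chosen with earlier results of these data known. Text names all members, all other KLF and SP genes, each list's genes with an adjusted *P* value under 0.05 (at most 4) and its most abundant gene, and the 5 genes nearest *Klf9*; a few further genes (*Wnt9b*, *Kcnip2*, *Sin3a*, *Fkbp5* and *Egr1*) and the checks of sex and *Dio3* were picked after their values were seen. Older symbols were matched for red cell genes. Python (version 3.11.15), pandas (2.3.3) and numpy (2.4.6) were used.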

Additional observations from a re-analysis of the deposited data

How the results depend on the processing

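No paired analysis was possible because the table gives genotype means and not single hearts, and leaving out hearts in turn was not run for the same reason. Among the 9 members other than *Klf9*, the 2 that passed became 1 (*Klf13*) without a filter on low values, without the mean-variance trend and with each coefficient of variation raised by its rounding error, and 0 with Welch's test. Both were kept with pseudocounts of 0.1 and 1, a mean over both genotypes above 5 RPKM, 1 row per gene, centring on the median log2 ratio, a log-normal SD, and (chosen after seeing the data) without rows whose coefficient of variation was above 0.5. The log2 fold change of *Klf13* stayed between 0.34 and 0.39 and that of *Klf6* between -0.30 and -0.25. Of the other KLF and SP genes, 1 (*Klf8*, adjusted *P* = 0.0489 by limma) passed without the trend. Over the whole table, 703 rows passed, which became 431 without a filter, 394 with centring, 414 with raised coefficients of variation, 319 with 1 row per gene (14657 tested) and 69 with Welch's test. The number was 571 without the trend, 687 and 705 with pseudocounts of 0.1 and 1, 763 with a log-normal SD, 811 with a mean above 5 RPKM and 1052 without rows of high coefficient of variation. The share of *Klf9* in summed RPKM was 0.866% (*Dio3*+/+) and 3.93% (*Dio3*-/-) when all transcript rows were summed, where *Klf3* has 5, and 1.24% and 5.6% over all 17 KLF genes. No log2 fold change of the 50 genes examined changed sign. Under the alternatives, 502 of their values kept their side of the threshold, 33 lost it and 1 gained it. The depth of single libraries is unknown here. With 4 hearts per genotype, the intervals of *Klf4*, *Klf5*, *Klf10* and *Klf11* leave both directions possible. Those of *Klf1*, *Klf7*, *Klf12*, *Klf16*, *Sp1*, *Sp2*, *Sp3* and *Sp4* do so as well.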
